A study of Mus musculus with 2 samples.

Results

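A set of 10 genes of the hepatic acute phase was examined, each read by 1 probe set: Saa1, Saa2, Saa3 and Saa4 (serum amyloid A), Lcn2 (lipocalin 2), Orm1, Orm2 and Orm3 (orosomucoids), Hp (haptoglobin) and Hpx (hemopexin). They were chosen by name, as the probe sets whose platform annotation names only these genes, and are 10 of 30142 genes measured. RNA came from PiZ mice, a C57BL/6 strain transgenic for human ATZ, the Z mutant of alpha-1-antitrypsin, under its own human promoter. Both groups carry the transgene, and no non-transgenic liver was analysed here. The mice were untreated, received standard chow and were killed at 3 months of age. Globule-containing areas (1 array) were cut by laser from frozen liver sections stained with Cresyl Violet, and globule-free areas (1 array) were cut likewise. The areas were thus chosen by morphology, and the globules are deposits of the mutant protein in hepatocytes. The RNA of 2 mice was pooled for each array, and the labels do not say whether the 2 pools come from the same animals.

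The acute phase response is the shift in liver secretion that follows infection or tissue injury. Interleukin-6 acting through STAT3, and interleukin-1 and TNF acting through NF-kB and C/EBP factors, induce the serum amyloid, orosomucoid and haptoglobin genes in hepatocytes. Saa1 and Saa2 encode the inducible serum amyloids carried on high-density lipoprotein, Saa3 is made by macrophages and adipose tissue as well as liver, and Saa4 is a largely constitutive liver form. Lipocalin 2 binds bacterial siderophores and is made by neutrophils, macrophages, injured epithelia and hepatocytes. The orosomucoids are plasma glycoproteins that bind small ligands, haptoglobin binds free hemoglobin and hemopexin binds free heme.

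Values are log2 signals as the authors deposited them, and a difference is the globule-containing value minus the globule-free value. With 1 array in each group there is no replicate, so no test, p-value or SD can be given and each difference describes these 2 arrays. A difference in a captured area cannot tell fewer cells of a type from less RNA per cell. The arrays reach maxima of 19.93 (globule-containing) and 19.80 (globule-free), and background, set from olfactory and vomeronasal receptor probe sets, lay at 4.85 (globule-containing) and 5.04 (globule-free). Genes with a mean signal at or above a floor of 4.76 number 15023, and their median difference was 0.05. All 10 acute phase genes lay above the floor and above background on both arrays. As a yardstick of the spread between probe sets, 175 genes above the floor have 2 probe sets. The differences of the pair were a median of 0.17 and a 95th percentile of 1.32 apart on the log2 scale. Both probe sets are read on the same arrays, so this gap holds no spread from capture, pooling, amplification or array.

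The 4 serum amyloid genes all had lower signals in globule-containing areas, Lcn2 had a much higher one, and the orosomucoids lay within 2-fold. Hp and Hpx lay beside the array maxima and give no fold. Of the 10 genes, 3 were lower by 2-fold or more, against 5.26% of all genes above the floor and 11.0% of the 1284 genes with a mean signal of 12 or more. A single gene, Lcn2, was higher by 2-fold or more, against 6.47% of all genes above the floor and 7.79% of the bright ones. The median difference of the 10 genes was -0.51. Differences ran from -3.92 for Saa4 to 4.05 for Lcn2, so the genes did not move as 1 group. The 3 lower genes are neighbours in 1 gene cluster and are not independent readings.

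**Figure D1:**
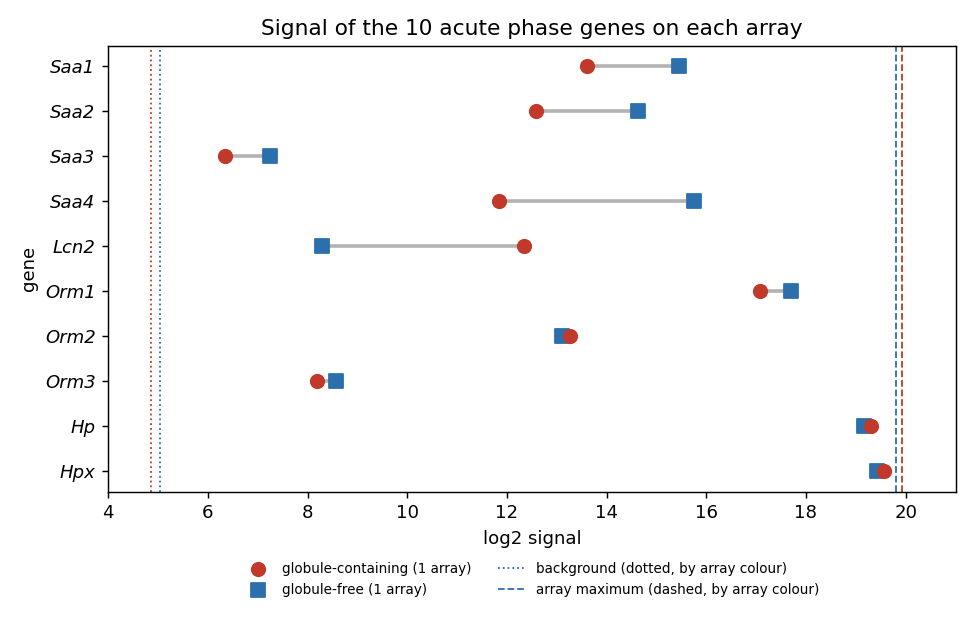
Log2 signal of each gene on the globule-containing array (red circles) and the globule-free array (blue squares), 1 array each; dotted lines mark background and dashed lines the maximum of each array. The Saa genes lie lower on the globule-containing array, Lcn2 lies higher, and Hp and Hpx lie next to the array maxima on both.

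Saa4 was the lowest of the 10 by difference. Its log2 signal (probe set TC0700003040.mm.1) was 11.85 in globule-containing areas and 15.76 in globule-free areas, a difference of -3.92, or 15.1-fold lower. Of the 15023 genes above the floor, 22 had a lower difference. Both values are far from background and from the array maxima, so neither bound limits this fold.

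Saa1 and Saa2, the inducible pair, were lower by similar amounts. Saa1 (TC0700003041.mm.1) had 13.60 in globule-containing areas and 15.45 in globule-free areas, 3.61-fold lower. Saa2 (TC0700000878.mm.1) had 12.58 in globule-containing areas and 14.63 in globule-free areas, 4.15-fold lower. Their differences of -1.85 and -2.05 were 0.20 apart, close to the median gap between probe sets of 1 gene. These paralogs can share hybridisation, and RefSeq lists each gene's symbol as an older name of the other, so the values are best read as 1 pair. Saa4 differed from Saa1 by a further -2.06 and from Saa2 by a further -1.86, both past the 95th percentile of the gap between probe sets of 1 gene. The constitutive form thus had the larger difference on these arrays.

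Saa3 was dim and stayed within 2-fold. Its log2 signal (TC0700003039.mm.1) was 6.34 in globule-containing areas and 7.24 in globule-free areas, 1.87-fold lower with a difference of -0.91. Among the 10 genes it lay just inside 2-fold, and the next beyond it was Saa1.

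The upstream sequences of the 4 Saa genes and of Lcn2 are shown because these are the genes with the widest differences and their paralog Saa3. Each is the 250 bases before the RefSeq start in build GRCm38.p6, written 5' to 3' on the gene's own strand, and capitals mark matches to the C/EBP consensus TTNNGNAA on either strand.
Saa1, chr7:46742981-46743230, minus strand: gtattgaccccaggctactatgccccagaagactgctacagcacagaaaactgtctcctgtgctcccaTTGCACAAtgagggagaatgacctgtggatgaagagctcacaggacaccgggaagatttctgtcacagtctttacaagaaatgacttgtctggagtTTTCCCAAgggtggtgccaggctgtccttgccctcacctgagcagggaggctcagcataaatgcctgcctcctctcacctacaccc
Saa2, chr7:46751583-46751832, plus strand: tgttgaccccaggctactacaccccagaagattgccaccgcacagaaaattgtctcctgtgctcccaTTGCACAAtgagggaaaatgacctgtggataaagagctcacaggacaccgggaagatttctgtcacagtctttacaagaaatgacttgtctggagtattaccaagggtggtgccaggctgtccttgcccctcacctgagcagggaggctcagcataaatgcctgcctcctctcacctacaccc
Saa3, chr7:46715677-46715926, minus strand: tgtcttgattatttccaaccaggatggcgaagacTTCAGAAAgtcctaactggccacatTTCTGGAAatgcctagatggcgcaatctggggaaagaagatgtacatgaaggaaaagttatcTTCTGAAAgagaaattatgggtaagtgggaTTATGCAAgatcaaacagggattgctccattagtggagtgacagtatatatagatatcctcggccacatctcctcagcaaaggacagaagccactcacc
Saa4, chr7:46732604-46732853, minus strand: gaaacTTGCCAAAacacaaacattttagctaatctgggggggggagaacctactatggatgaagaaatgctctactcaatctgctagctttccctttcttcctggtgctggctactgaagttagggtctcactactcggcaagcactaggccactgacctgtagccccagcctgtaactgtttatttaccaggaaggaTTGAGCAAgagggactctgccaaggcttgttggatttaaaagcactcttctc
Lcn2, chr2:32387740-32387989, minus strand: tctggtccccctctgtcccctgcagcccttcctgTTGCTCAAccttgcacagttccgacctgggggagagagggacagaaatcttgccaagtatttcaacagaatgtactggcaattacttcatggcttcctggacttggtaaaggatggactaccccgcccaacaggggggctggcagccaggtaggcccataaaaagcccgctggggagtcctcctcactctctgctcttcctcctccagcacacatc

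Saa1 and Saa2 were nearly the same upstream, with 94.8% identity over the aligned window, whereas Saa4 had 46.3% identity to Saa1 and 44% to Saa2, and Saa3 had 48.5% to Saa1. Unrelated pairs score about as high in such an alignment: Saa1 and Lcn2 had 52.2%. Upstream sequences were found for 8 of the 10 genes, and Orm1 and Hp had no entry in the table. The C/EBP letters occurred in 8 of these 8 windows, against 36.8% of 32851 RefSeq windows of the same length. The far matches of Saa1 and Saa2 share the same letters, as paralogs, and start 182 bases (Saa1) and 183 bases (Saa2) before the gene start. Saa1 had a second match, 86 bases before its start. Lcn2 had 1 match, 216 bases before its start, and Saa4 had matches at 245 and 52 bases. The STAT consensus TTCNNNGAA occurred in 0 of the 8 windows, against 7.02% of all, and the NF-kB consensus in 0, against 7.25%. The C/EBP letters stood upstream of genes that were lower, higher and within 2-fold. These are matches of letters in a short window and say nothing of whether a factor binds there.

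Lcn2 went the opposite way to the serum amyloids. Its log2 signal (TC0200003303.mm.1) was 12.34 in globule-containing areas and 8.29 in globule-free areas, a difference of 4.05, or 16.5-fold higher. Of the genes above the floor, 30 had a higher difference. The globule-free value was 3.25 above background, so the fold is measured on both sides. Set against Saa4, the difference of Lcn2 was 7.96 higher on the log2 scale.

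The orosomucoids, which are lipocalins by fold and acute phase proteins by regulation, all stayed within 2-fold. Orm1 (TC0400000718.mm.1) had 17.07 in globule-containing areas and 17.70 in globule-free areas, a difference of -0.62. Orm2 (TC0400000721.mm.1) had 13.26 in globule-containing areas and 13.10 in globule-free areas, a difference of 0.16 that turned to -0.066 after quantile normalization and to -0.061 after loess correction. Orm3 (TC0400000720.mm.1) had 8.18 in globule-containing areas and 8.57 in globule-free areas, a difference of -0.39. Orm2 and Orm3 had 85.5% identity over the 250 bases upstream, and the 3 coding genes lie side by side on chromosome 4. Their probe sets can share hybridisation. The difference of Orm1 minus that of Orm2 was -0.79, within the 95th percentile of the gap between probe sets of 1 gene.

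Hp and Hpx gave no usable fold, because both lay beside the array maxima. Hp (TC0800002905.mm.1) had 19.30 in globule-containing areas and 19.17 in globule-free areas, which is 0.63 below the maximum of each array. Its difference of 0.13 equals the difference between the maxima of the 2 arrays to within 2e-05. Of 528 probe sets with a globule-containing signal of 18 or more, 65 shared that difference, and Hp was 1 of 8 of these that lay further than 0.2 below the maximum. Hpx (TC0700003982.mm.1) had 19.56 in globule-containing areas and 19.43 in globule-free areas, 0.37 below the maximum of each. Its difference was 0.12. The median difference of the 42 genes within 1.0 of the maximum on both arrays was 0.10, with a range from -0.43 to 0.95. Both signs turned negative after loess correction, to -0.20 for Hp and -0.20 for Hpx. The values place both transcripts among the brightest signals in both areas and cannot show whether their levels differed.

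**Figure D2:**
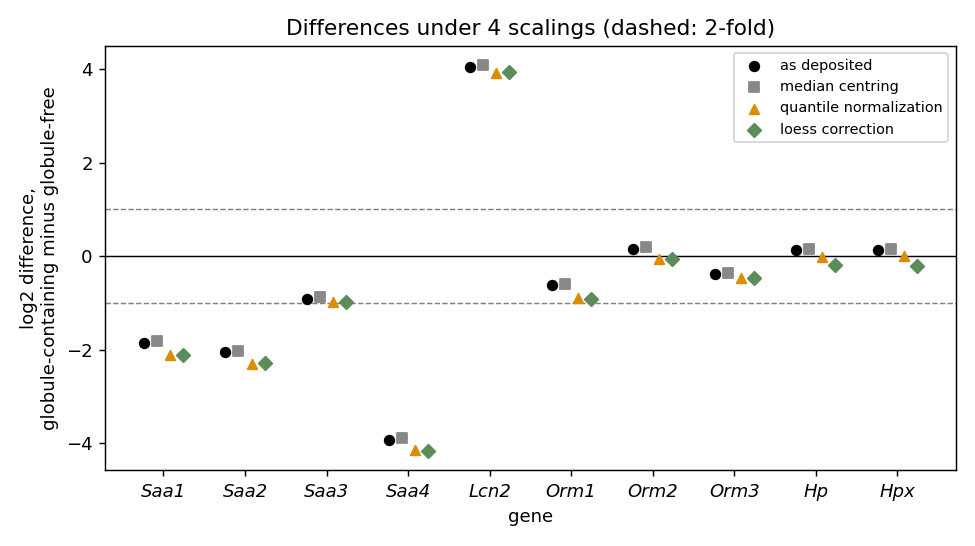
Log2 difference (globule-containing minus globule-free, vertical axis) of each gene under the deposited scaling and 3 other scalings, 1 point per scaling; dashed lines mark 2-fold. Lcn2 near 4, Saa4 near -4 and the Saa1 and Saa2 pair near -2 keep their side of the 2-fold lines under each scaling, while Orm2, Hp and Hpx change sign.

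**Figure D3:**
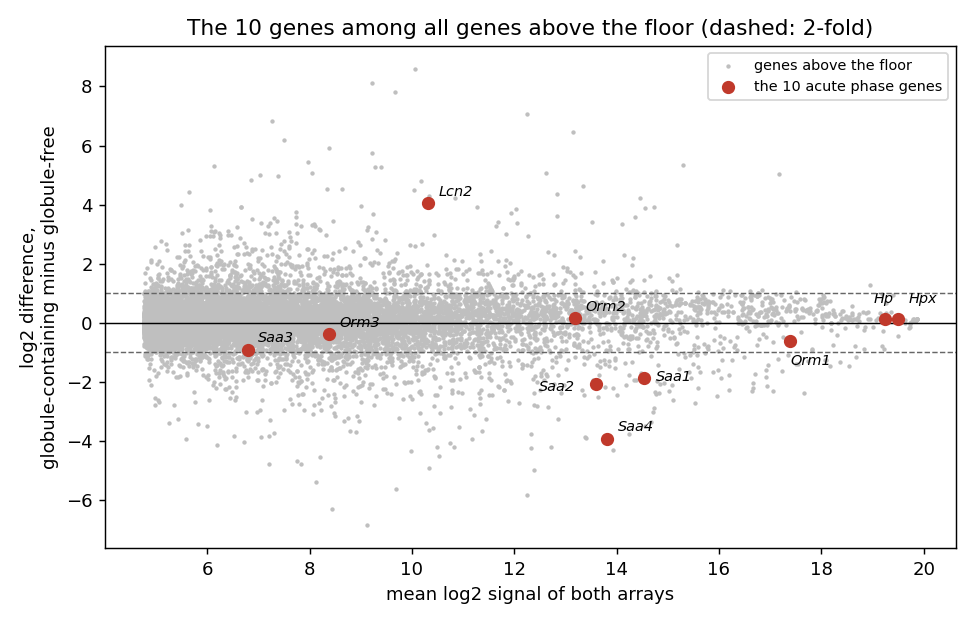
Difference (vertical axis, log2) against mean signal of both arrays (horizontal axis, log2) for the 15023 genes above the floor (grey) with the 10 acute phase genes in red; dashed lines mark 2-fold. Lcn2, Saa4, Saa1 and Saa2 lie outside the dashed lines, and Hp and Hpx lie at the right end where the spread of all genes narrows.

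Other genes induced in the hepatic acute phase went both ways, and 11 of the 19 above the floor were counted within 2-fold. Of 25 listed, 21 had a value and 19 lay above the floor. Of these, 11 were within 2-fold, 5 were lower by 2-fold or more, against 5.26% of all genes above the floor, and 3 were higher, against 6.47%. Among genes with a mean signal of 12 or more, the shares were 11.0% lower and 7.79% higher. The median was -0.72, against 0.05 for all genes above the floor and -0.83 for the hepatocyte markers. Fga and Fgb stand in both this list and the hepatocyte list, so these medians are not independent. The hepatocyte median also includes genes near the array maxima, Alb on both arrays and Ttr and Fga on the globule-free array, whose differences may be too small. Pigr, the polymeric immunoglobulin receptor, had 11.44 in globule-containing areas and 15.35 in globule-free areas. Fgl1, a secreted fibrinogen-like protein, had 11.44 in globule-containing areas and 15.31 in globule-free areas. Itih3, an inter-alpha-trypsin inhibitor chain, was 5.38-fold lower, Itih4 4.41-fold lower and Apcs 2.95-fold lower. Of the 19 genes, 13 had a difference below 0 and 6 above. Pigr also stands in the periportal marker list. The higher ones were Cd14, the lipopolysaccharide co-receptor, at least 4.96-fold higher against a globule-free signal at background, Il1rn, the interleukin-1 receptor antagonist, with a difference of 2.29, and Lbp, the lipopolysaccharide-binding protein, with 1.06. Hamp, which encodes the iron hormone hepcidin, was at the maximum on both arrays and gives no fold, though it is counted within 2-fold above. Fga and Fgg of this list lay near the array maximum in globule-free areas, with 19.65 and 19.71. Their differences of -0.87 and -0.43 may thus be too small, and their place within 2-fold is uncertain. Hamp, Fga and Fgg also enter the list median. Crp, C-reactive protein, had a difference of -0.72 and Serpina3n, a protease inhibitor, of -0.56.

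Plasma proteins whose output drops in the acute phase lay mostly within 2-fold. Of 13 with a value, 12 were within 2-fold, 1 was lower and none higher by 2-fold or more. Of all genes above the floor, 5.26% were lower and 6.47% higher. Among those with a mean signal of 12 or more, 11.0% were lower and 7.79% higher. The 12 include 4 genes at the maximum on both arrays, whose differences are not informative and also enter the median. Ttr, with 19.72 in globule-containing areas and 19.75 in globule-free areas, lay so near both maxima that its difference is hardly more informative. The median was -0.39, beside -0.83 for the hepatocyte markers. Alb, Ttr, Apoa1 and Apoc3 stand in both of these lists, so the 2 medians are not independent. Igf1, insulin-like growth factor 1, had 11.76 in globule-containing areas and 13.36 in globule-free areas. Fetub, fetuin B, had a difference of -0.90, Serpina6, corticosteroid-binding globulin, of -0.87 and Apoa1, the main protein of high-density lipoprotein, of -0.80. Alb, Trf, Ahsg and Apoa2, which encode albumin, transferrin, fetuin A and apolipoprotein A-II, were at the maximum on both arrays and give no fold. Positive and negative acute phase lists thus both had medians below 0.

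Genes of the interleukin-6 pathway were mixed, and its receptors differed in direction. Of 21 listed, 14 lay above the floor, with 2 higher and 1 lower by 2-fold or more and a median of 0.27. Over all genes above the floor, 6.47% were higher and 5.26% lower. Il22ra1, the receptor chain through which interleukin-22 reaches STAT3 in hepatocytes, had 9.15 in globule-containing areas and 6.06 in globule-free areas, a difference of 3.09. Osmr, the oncostatin M receptor, differed by 1.26 and Il6st, the shared gp130 chain, by 0.96. Lifr, the leukemia inhibitory factor receptor, had 10.65 in globule-containing areas and 12.94 in globule-free areas. Osmr, Il6st and Lifr, receptors of 1 cytokine family, thus differed both ways. Il6ra, which binds interleukin-6 itself, differed by -0.89 and Stat3 by -0.68. The cytokine transcripts Il6, Il22, Osm and Lif lay at or below background on both arrays, as did Socs3, the STAT3-induced feedback inhibitor.

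The interleukin-1 and NF-kB list had a median of 0.04 over 16 genes above the floor, with 2 higher and 2 lower by 2-fold or more. All genes above the floor had shares of 6.47% higher and 5.26% lower. Il1rap, the accessory chain of the interleukin-1 receptor, had 6.55 in globule-containing areas and 8.98 in globule-free areas. Il1r1, the receptor's binding chain, differed by 0.02. Il1b, interleukin-1 beta, differed by 1.17 and Tnfaip3, the NF-kB inhibitor A20, by 1.02, while Il1a, interleukin-1 alpha, differed by -1.29. Nfkbiz, the IkB-zeta cofactor required for Lcn2 induction, differed by -0.04. The accessory chain had the widest difference of this list, and the binding chain lay near 0.

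C/EBP and glucocorticoid regulators had a median of -0.24 over 14 genes, with 1 past 2-fold in each direction. These counts are near the shares of all genes above the floor, 6.47% higher and 5.26% lower. Ddit3, the C/EBP-related stress factor CHOP, differed by 1.63 and Hsd11b1, which regenerates active glucocorticoid, by -1.37. The C/EBP factors that drive acute phase genes were within 2-fold. Cebpb differed by -0.24, Cebpd by 0.01 and Cebpa by -0.61. Hnf4a, a hepatocyte transcription factor, differed by -0.75.

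Receptors and partners of these proteins had a median of 0.07 over 12 genes above the floor, with 1 higher and 1 lower by 2-fold or more. Both counts are near the shares of all genes above the floor, 6.47% higher and 5.26% lower. Lrp1, the uptake receptor of heme-bound hemopexin, had 10.76 in globule-containing areas and 11.91 in globule-free areas. Cd36, a scavenger receptor that also binds serum amyloid A, differed by 2.42. Hmox1, the heme-degrading oxygenase, and Tlr2 each differed by 0.81. Cd163, the macrophage receptor of the haptoglobin and hemoglobin complex, lay below background on both arrays, as did Slc22a17, a lipocalin 2 receptor. No receptor of haptoglobin or of lipocalin 2 on this list was thus measured above background.

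Among the lipocalins listed, Lcn2 alone was higher by 2-fold or more as deposited. Of 16 others listed, 9 lay above the floor and 4 of them were lower by 2-fold or more, with a list median of -0.44. The share lower was 5.26% over all genes above the floor and 11.0% at a mean signal of 12 or more. Apom, the apolipoprotein of the lipocalin fold, had 10.21 in globule-containing areas and 14.44 in globule-free areas. The urinary proteins Mup21 and Mup3 differed by -1.44 and -1.31, and C8g, a complement C8 chain, by -1.17. Mup genes are near-identical and can share hybridisation. Mup20 had 19.68 in globule-containing areas, near the array maximum, and 18.69 in globule-free areas. Its difference of 0.99 was the only one of the 9 above 0. It lay just inside 2-fold, and with a signal so near the maximum its place there is uncertain.

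**Figure D4:**
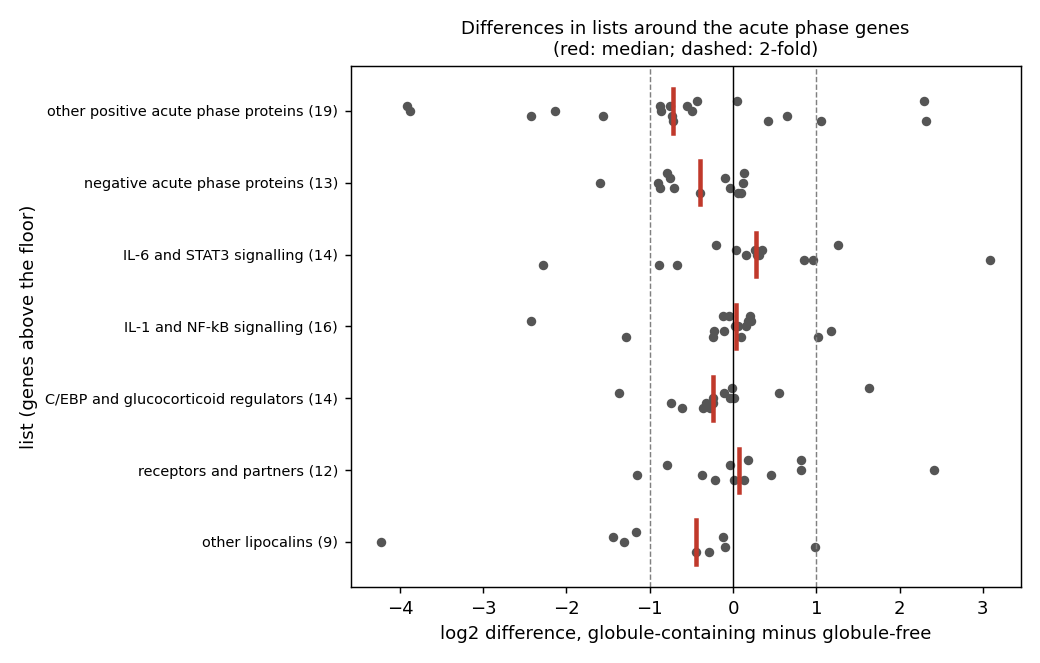
Log2 difference (horizontal axis) of each gene above the floor in 7 lists, 1 point per gene, with the list median in red and dashed lines at 2-fold; the number of genes stands in brackets. Medians run from -0.72 for other positive acute phase proteins to 0.27 for interleukin-6 and STAT3 signalling.

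Markers of other cell types moved on the same arrays. For each marker count that follows, 6.47% of all genes above the floor were higher by 2-fold or more and 5.26% lower. Both arrays carried hepatocyte signal: 12 of 12 hepatocyte markers lay above the floor on their mean and Alb was at the maximum on both, with a list median of -0.83 and 4 genes lower by 2-fold or more. Of the periportal list 6 of 8 were lower by 2-fold or more, with a median of -3.13, and of the pericentral list 1 of 10 was higher, with a median of 0.45. The periportal and hepatocyte lists were lower on the same array as the Saa genes, and their part in the Saa differences was not tested.

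Macrophage markers were higher, with 9 of 12 past 2-fold, a median of 1.43 and a summed signal of 18.38 in globule-containing areas and 13.45 in globule-free areas on the log2 scale. Gpnmb, Lyz2, Ctss and Cd68, all of macrophages and their lysosomes, differed by 8.11, 5.34, 5.08 and 3.73. Most of the globule-containing sum came from Lyz2, with 17.96. Kupffer cell markers were lower, with 5 of 9 past 2-fold, a median of -1.54 and a summed signal of 10.33 in globule-containing areas and 12.51 in globule-free areas. Clec4f, Cd5l, Vsig4 and Timd4, markers of resident Kupffer cells, differed by -3.05, -2.68, -2.44 and -1.98. Stellate cell and fibroblast markers were higher past 2-fold for 10 of 11, with a median of 2.43, with a summed signal of 15.70 in globule-containing areas and 12.42 in globule-free areas. Lum differed by 3.92, Lrat by 3.46 and Dcn by 3.42. Dcn, with 15.22 in globule-containing areas, made up most of the stellate sum there. The macrophage and stellate lists were higher on the same array as Lcn2, while the Kupffer list was lower there, as the Saa genes were. The part of these lists in the differences of Lcn2 and the Saa genes was not tested.

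Lcn2 is also made by neutrophils, and their markers differed among themselves. Mpo, Elane, Ngp, Ltf and Mmp8, 5 of the 12 neutrophil markers, lay at or below background on both arrays, and Ly6g, which defines mouse neutrophils, had 5.35 in globule-containing areas and 5.07 in globule-free areas. Above the floor, the 2 neutrophil markers higher by 2-fold or more were S100a8, with 11.34 in globule-containing areas and 5.42 in globule-free areas, and S100a9, with 10.91 in globule-containing areas and 6.37 in globule-free areas. S100a8 and S100a9 are also made by monocytes and macrophages. Retnlg, a resistin-like gene of neutrophils whose mean lay below the floor, had 5.11 in globule-containing areas and 3.92 in globule-free areas, at least 1.05-fold higher against background. The summed signal of the neutrophil list was 12.24 in globule-containing areas and 8.66 in globule-free areas on the log2 scale. Most of the globule-containing sum came from S100a8 and S100a9, and the median difference of the 6 neutrophil markers above the floor was 0.19. The part of neutrophils in the Lcn2 difference was not tested. Cholangiocyte markers had 4 of 7 above the floor and none past 2-fold, and endothelial markers had 1 of 10 higher by 2-fold or more, with a median of -0.01.

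**Figure D5:**
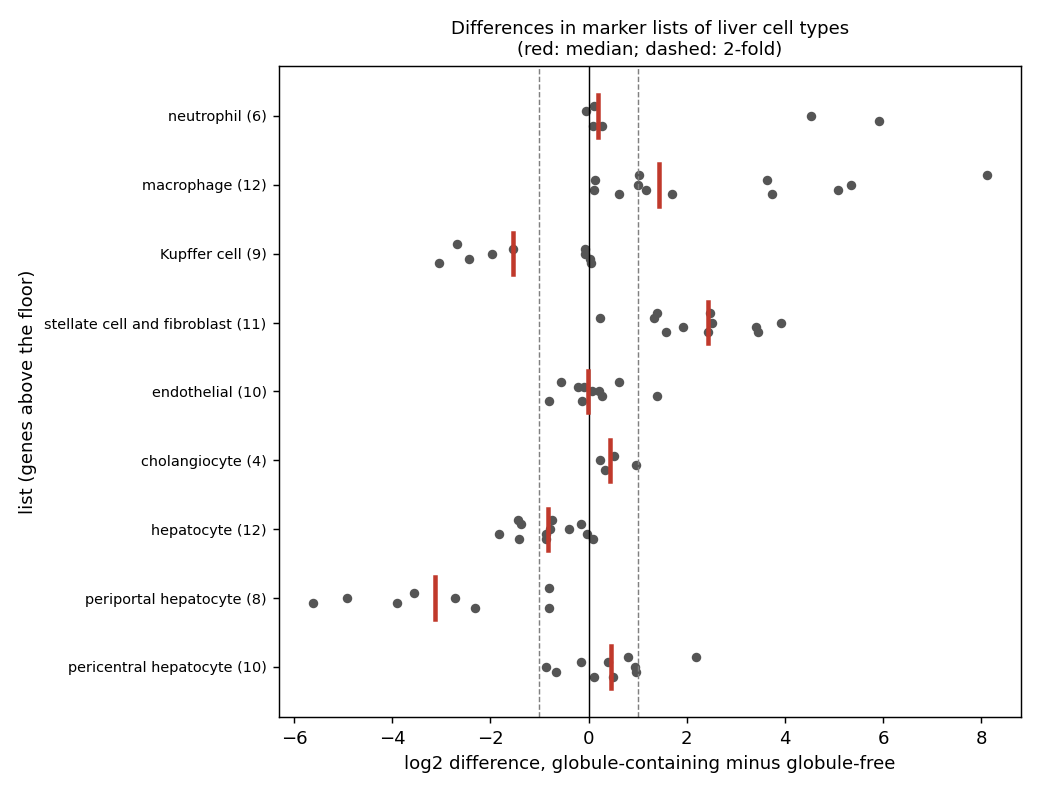
Log2 difference (horizontal axis) of each gene above the floor in 9 marker lists, 1 point per gene, with the list median in red and dashed lines at 2-fold. Medians run from -3.13 for periportal hepatocytes to 2.43 for stellate cells and fibroblasts, and 4 of the 6 neutrophil markers lie close to 0.

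The genes most like Lcn2 and Saa4 were taken by distance between their 2 values, on the log2 scale, over these 2 arrays. Nearest to Lcn2 were Lyz1, a lysozyme, at a distance of 0.19, Igfbp1, an insulin-like growth factor binding protein of stressed liver, at 0.48, and Srxn1, sulfiredoxin, at 0.57. Nearest to Saa4 were Slc10a1, the bile acid importer of hepatocytes, at 0.32, Pigr at 0.58 and Fgl1 at 0.61. With 2 arrays, likeness means only a similar level and a similar difference.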

How the data were processed

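Per the labels' protocols, RNA of the captured areas was isolated with a PicoPure kit, and 50 ng went into each NuGEN Ovation WTA V2 reaction. The authors deposited log2 values for 72688 probe sets, made with the Transcriptome Analysis Console, per the submitters' processing notes; no version, background correction, normalization or genome build is stated in the labels. Read depth does not apply to arrays, and the precision is limited by having 1 per group.

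Of the probe sets, 30604 name 1 gene and were used, 2146 name several and 39938 have none listed. Entrez IDs matched a RefSeq table (GRCm38.p6) for 22818, changing 827 symbols, and probe sets of a gene were averaged. The floor is the median over the probe sets used. Background was read from 1721 probe sets of olfactory or vomeronasal receptors, at their 95th percentile, a choice made after values were seen. Against background a fold is a bound, computed with the dim value set to the background level. Within 0.2 of the maximum on both arrays (called "at the maximum") no fold is given, nor for Hp and Hpx, a choice made after their values were seen. Counts use deposited values.

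The 10 genes, 7 pathway lists and 9 marker lists were chosen with earlier results of these data known. Named in each pathway list are the 4 genes above the floor with the widest difference, and some receptors and direct regulators. The same 4 are named in the macrophage and Kupffer cell lists, and only some or none of them in the other marker lists. Il1rn, Lbp, Hamp, Crp, Serpina3n, Itih4, Apcs, Mup20 and Retnlg were added after their values were seen. So were the genes at or near the maximum and the neutrophil genes at background. Upstream sequences come from RefSeq, with identity taken over all columns of a global alignment. Alternatives were the scaling, floor, threshold, ceiling margin, choice of probe set and raised dim values. Counting was tested on simulated data. Python 3.11.15, numpy 2.4.6, pandas 2.3.3, statsmodels 0.14.6, matplotlib 3.10.9 and biopython 1.88 were used.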

Additional observations from a re-analysis of the deposited data

How the results depend on the processing

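No paired analysis was possible because each group has 1 array, and no array could be left out. Across scaling, probe set and ceiling alternatives, 3 genes were lower and 1 higher by 2-fold or more; at 1.5-fold, 5 were lower, and at 4-fold, 2. The alternatives of scaling moved the brighter genes. After quantile normalization the differences were -2.11 for Saa1, -2.30 for Saa2, -4.13 for Saa4, -0.90 for Orm1 and -0.066 for Orm2. After loess correction they were -2.11 for Saa1, -2.29 for Saa2, -4.16 for Saa4, -0.92 for Orm1, -0.061 for Orm2, -0.20 for Hp and -0.20 for Hpx. The count of all genes above the floor at least 2-fold higher and lower was 972 and 790 as deposited, 855 and 961 after quantile normalization and 846 and 962 after loess correction. The other positive acute phase list had a median of -0.95 after quantile normalization, and of -0.91 with 8 genes at least 2-fold lower after loess correction. The negative acute phase list had a median of -0.64 (quantile) or -0.66 (loess), with 4 genes at least 2-fold lower under each, and 2 with probe sets naming several genes added. The interleukin-6 list had 1 gene at least 2-fold higher with the floor at the 75th percentile. The interleukin-1 list had 1 after quantile normalization or loess correction, and 0 at the higher floor. The receptors list had a median of -0.11 and 2 genes at least 2-fold lower after loess correction. The other lipocalins had 1 gene at least 2-fold higher after median centring or with probe sets naming several genes added, and a median of -1.17 at the higher floor. The higher floor tests fewer genes; the cause of the other shifts was not tested. Signal near the maximum limits Hp and Hpx, and signal near background limits the cytokine genes.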

Other observations

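The genes that flank the Saa cluster, taken as the 3 nearest protein-coding genes with a probe set on each side in the RefSeq order, gave values beside the cluster. On one side Saal1, Tph1 and Sergef had globule-free signals at background, and their differences were 0.03, -0.24 and 0.22. On the other side Hps5, a subunit of an organelle biogenesis complex, had 5.93 in globule-containing areas and 6.34 in globule-free areas, and Gtf2h1, a subunit of transcription factor TFIIH, had 8.36 in globule-containing areas and 8.50 in globule-free areas. Ldha, lactate dehydrogenase A, the third gene on that side, had 8.44 in globule-containing areas and 9.71 in globule-free areas, 2.42-fold lower.

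The genes beside Lcn2 on chromosome 2 stayed within 2-fold. Ciz1, a cell cycle cofactor, had 6.62 in globule-containing areas and 6.31 in globule-free areas, Ptges2, a prostaglandin E synthase, had 4.97 in globule-containing areas and 5.10 in globule-free areas, and Slc25a25, a mitochondrial phosphate carrier, had 7.62 in globule-containing areas and 8.35 in globule-free areas. Beside the Orm genes on chromosome 4, Ambp, which encodes another lipocalin, alpha-1-microglobulin, had 19.07 in globule-containing areas and 19.36 in globule-free areas, both near the array maxima.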
